A study of Mus musculus with 2 samples.

Results

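Bins of the mouse brain that carried the dentate granule cell genes C1ql2, Dsp and Prox1 were examined in spatial transcriptomes of brains that had received a controlled cortical impact (CCI). In this traumatic brain injury model the skull is opened on 1 side and a piston is driven into the cortex. Members were chosen by the share of UMIs (unique molecular identifiers, counted probe molecules) that the 3 genes held in a block 3 bins wide centred on the bin. The share had to lie within the top 1.5% of the opposite side, and the block had to hold at least 3 UMIs of C1ql2 plus Dsp. This gave 1367 of 227556 bins, 864 at 3 days and 503 at 28 days. The 3 genes chose the members, so their levels are given only as a description.

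The series holds 1 coronal section of 1 male C57Bl6 mouse 3 days after CCI and 1 section of another 28 days after CCI, both mice 3 months old when injured and without any other treatment named in the labels. No sham section was analysed here. Probes for each gene had been hybridised to fixed, paraffin-embedded tissue and captured on a Visium HD slide, and were counted in bins 16 µm wide. A bin is a small area that can hold parts of several cells, bins of a section are not replicates, and each group is 1 animal, so no test of a condition was possible and no p-value is given. Within a section the injured side was set against the opposite side of the same brain. Intervals in brackets are 95% exact intervals that cover counting error only.

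Granule cells are the small excitatory neurons of the dentate gyrus, packed into a dense layer at the entrance of the hippocampus. They receive input from the entorhinal cortex and pass it on to hilar mossy cells and CA3 pyramidal cells through mossy fibres rich in zinc and brain-derived neurotrophic factor. C1ql2 encodes a secreted synaptic organiser of mossy fibres, Dsp a desmosomal protein, and Prox1 a transcription factor that granule cells need to keep their identity and that other brain regions express as well.

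The members did not all carry the markers of granule cells. They formed 6 connected patches of at least 25 bins, with 30 bins scattered outside them, and the patches were of 2 kinds. In 3 patches with 659 bins (48.2% of members), 19 granule identity genes that the rule had not used summed to between 4568 and 5997 CPM (UMIs of a gene or list per 1000000 UMIs of the summed bins), and 8 thalamic marker genes to between 66.8 and 115 CPM. In the other 3 patches, with 678 bins (49.6%), the granule identity genes summed to only 498 to 636 CPM and the thalamic markers to 1166 to 1279 CPM. The rest of each section had between 958 and 1145 CPM of the granule identity genes. The kinds are called granule-marker patches and, after one of their marker genes, Tcf7l2-rich patches.

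Genes that neither the rule nor the kinds had used differed between the patches too. Neurod2, a transcription factor of maturing excitatory forebrain neurons, had 193, 164 and 406 UMIs in the granule-marker patches and 1 UMI in all Tcf7l2-rich patches together. Slc17a6, the vesicular glutamate transporter of subcortical excitatory neurons, went the other way, with 300 and 239 UMIs in the Tcf7l2-rich patches of the injured and the opposite side at 3 days and 19 UMIs at 28 days, against 2, 0 and 0 UMIs in the granule-marker patches. The levels of the genes that chose the members or named the kinds are a description only. Dsp had 96 UMIs (149 CPM) in the granule-marker patch at 3 days, 207 UMIs (323 CPM) in that of the opposite side at 28 days and 111 UMIs (336 CPM) in that of the injured side at 28 days. In the Tcf7l2-rich patches it had 0 UMIs on the injured side and 2 UMIs on the opposite side at 3 days, and 4 UMIs at 28 days. Tcf7l2, a transcription factor of the Wnt pathway, had 412, 501 and 530 CPM in the Tcf7l2-rich patches and at most 21.2 CPM in the granule-marker patches. C1ql2 itself was present in both kinds, at 507 to 622 CPM in the granule-marker and 867 to 978 CPM in the Tcf7l2-rich patches. Slc17a7, the vesicular glutamate transporter of cortical and hippocampal neurons, did not separate the kinds, with 780, 928 and 1188 CPM in the granule-marker and 819, 1019 and 742 CPM in the Tcf7l2-rich patches. Neurod2 and Slc17a6, but not Slc17a7, went against the label of dentate granule cells in the 678 Tcf7l2-rich bins, and the 2 kinds are described apart.

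**Figure D1:**
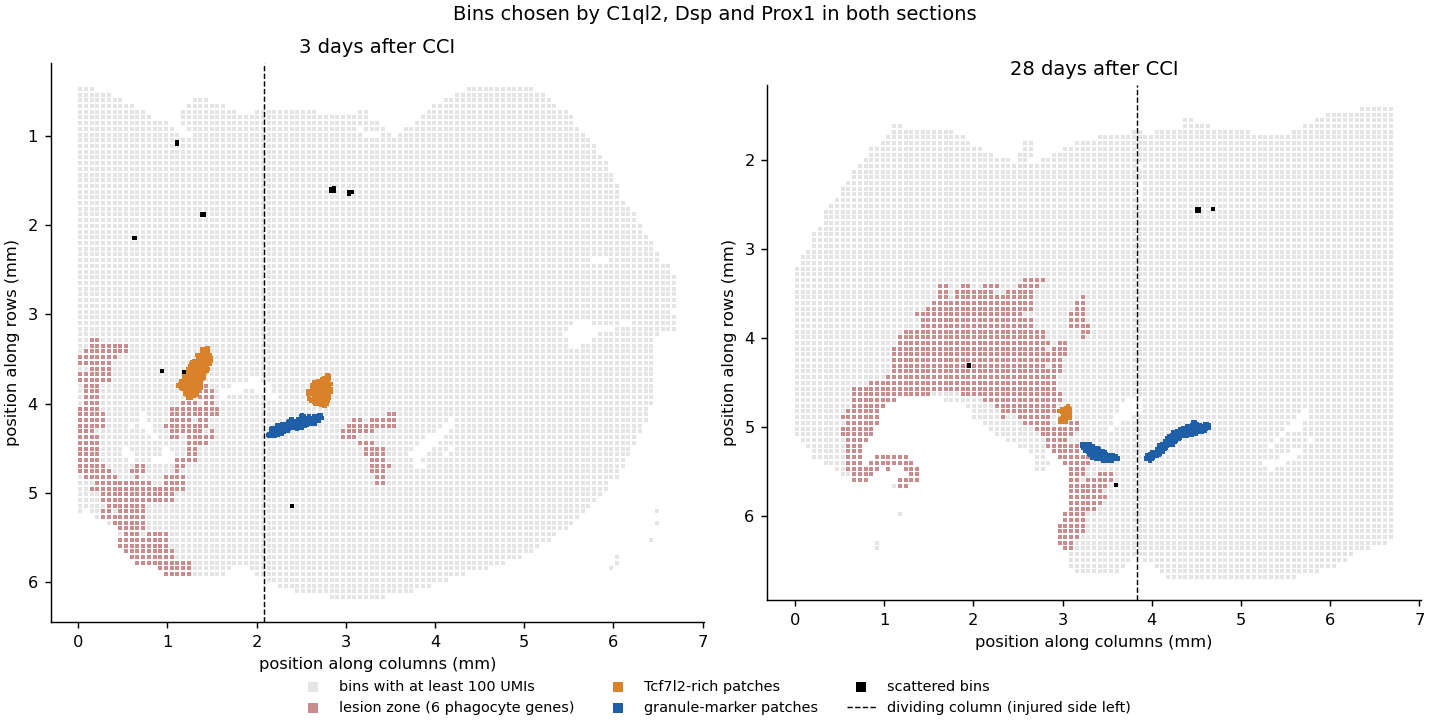
Position of the members in both sections, in mm along the columns and rows of the bin array. Light squares are tissue, pink squares the zone placed by 6 phagocyte genes, which at 3 days held 436 bins on the opposite side, blue the granule-marker patches, orange the Tcf7l2-rich patches and black the 30 scattered bins. At 28 days a blue patch lies on each side of the dividing column, whereas at 3 days the only blue patch lies on the opposite side.

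**Figure D2:**
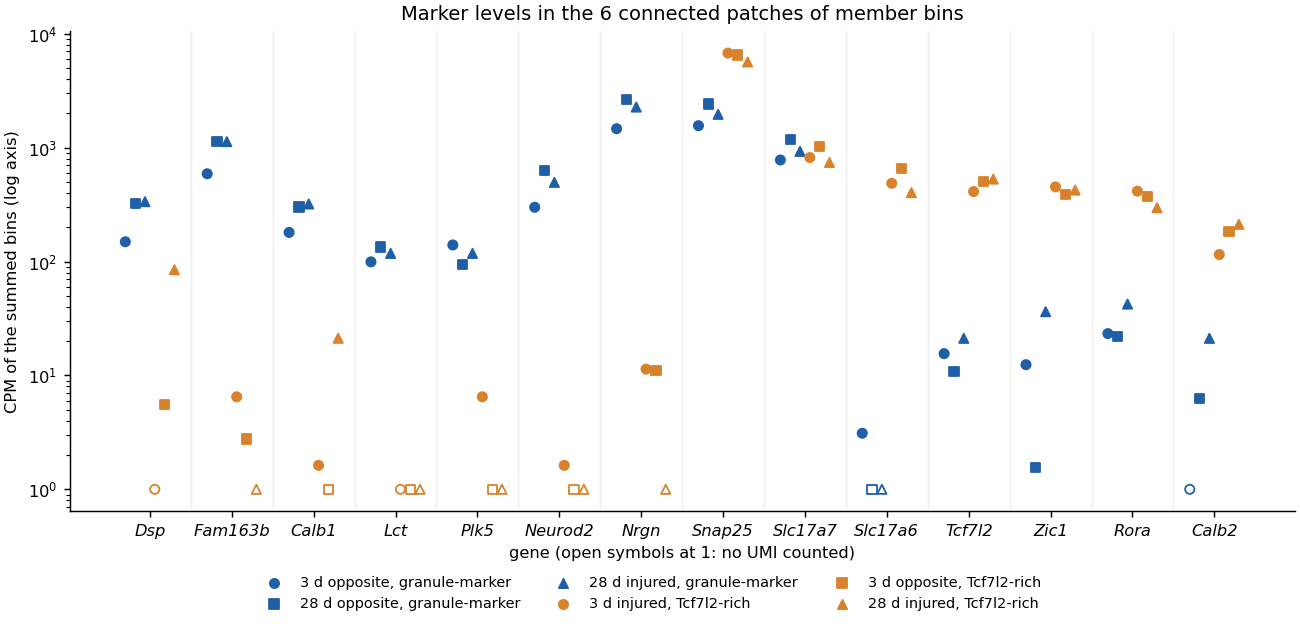
CPM of 14 marker genes in the 6 patches, on a log axis, with 1 symbol per patch and open symbols at 1 where no UMI was counted. Dsp, Fam163b, Calb1, Lct, Plk5, Neurod2 and Nrgn are high in the 3 granule-marker patches (blue), and Slc17a6, Tcf7l2, Zic1, Rora and Calb2 in the 3 Tcf7l2-rich patches (orange).

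The sides did not hold the same patches. At 3 days the injured side had 389 members, of which 379 lay in a Tcf7l2-rich patch and none in a granule-marker patch, and the opposite side had 475, of which 225 were granule-marker and 238 Tcf7l2-rich bins. At 28 days the injured side had 155 granule-marker and 61 Tcf7l2-rich bins among 219 members, and the opposite side 279 granule-marker bins among 284. With Prox1 left out of the score, 63 bins of the injured side at 3 days, none of them a member, held more UMIs of the granule identity list than of the thalamic list (41 against 19). These 63 bins had 472 CPM of the granule identity genes, against 958 CPM in the rest of the injured side, and 0 UMIs of Dsp, Lct and Neurod2. They lay 1532 to 2303 µm from the lesion zone of that side. No patch with granule markers at the level of the other 3 was thus found on the injured side at 3 days. Loss of the layer, lower RNA per cell and the level or tilt at which the section was cut cannot be told apart, and fewer cells cannot be told apart from less RNA per cell anywhere in these data. Bins in granule-marker patches held a median of 2879 UMIs at 3 days, and 2555 on the opposite and 2106 on the injured side at 28 days, against medians of 562 to 868 UMIs in the other bins of each side. The lowest 10 members had a block share of the 3 genes of 754 to 760 CPM at 3 days and 819 to 842 CPM at 28 days, and the 10 highest bins outside had 748 to 753 and 798 to 814 CPM.

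Over all members, the comparison of the sides at 3 days was therefore one of different patches. Of 2053 genes with at least 200 UMIs over both sides, 356 (17.3%) were at least 1.5-fold higher and 380 (18.5%) at least 1.5-fold lower on the injured side. With UMIs per bin, where the median over all genes was -0.35, the counts were 103 and 731, and with every bin given the same weight 165 and 308. Nrgn, a calmodulin-binding protein of forebrain neuron dendrites, had 7 UMIs on the injured and 956 UMIs on the opposite side, and Car12, a carbonic anhydrase, had 0 and 288. The highest ratios were those of Aldh1a1 (1.85 on the log2 scale), Pcp4l1 (1.70) and Nell1 (1.69). At 28 days, where granule-marker bins made up most of both sides, 25 of 1085 genes (2.3%) were at least 1.5-fold higher and 25 (2.3%) at least 1.5-fold lower. TMM scaling gave 21 and 44, UMIs per bin 9 and 359 with a median of -0.47 over all genes, and equal weight of bins 41 and 149. The 28 days minus 3 days difference of the ratios reached 1.5-fold in 283 of 1004 genes upwards (28.2%) and in 91 downwards (9.06%), with Itpka, Kcnip2, Icam5, Iqgap2, Synpr and Nrgn at its upper end. At its lower end were 4 mitochondrial genes (mt-Nd1, mt-Nd5, mt-Co3 and mt-Nd2) with Stmn4 and Ptprn2. None of these differences can be assigned to the injury or to time, since the patches, the animal and the section differed too.

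The granule-marker patches of the 28 days section allowed a comparison of patches of 1 kind, 155 bins with 330845 UMIs on the injured side against 279 bins with 641463 UMIs on the opposite side. They covered 0.040 and 0.071 mm2, and the 61 Tcf7l2-rich bins of the injured side had no counterpart. A difference in the level or tilt of the cut between the sides cannot be told apart from one of injury. Gfap, Apoe, Clu and Mbp, genes of the astrocyte, activated microglia and oligodendrocyte lists, were at least 1.5-fold higher on the injured side. Few genes of these lists had enough UMIs to be measured, 1 of 18 reactive astrocyte genes (Gfap, through the injured side alone), 4 of 18 astrocyte homeostatic genes, of which Clu alone was past 1.5-fold, 1 of 22 activated microglia and complement genes and 1 of 12 oligodendrocyte genes. The median log2 ratio of the genes that mark granule cells was -0.03, a value that the choice of bins by such genes in part set. Of 1019 genes measured (at least 200 UMIs over both sides), 14 (1.37%) were at least 1.5-fold higher and 17 (1.67%) at least 1.5-fold lower, and 6 (0.589%) and 1 (0.0981%) reached 2-fold. The median log2 ratio over all 1019 genes was -0.07. With TMM scaling the counts were 11 higher and 25 lower, with UMIs per bin (median -0.17) 10 and 34, and with every bin given the same weight 15 and 45.

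Among the glial genes, Gfap, the intermediate filament of reactive astrocytes, had 247 UMIs (747 CPM) on the injured and 82 UMIs (128 CPM) on the opposite side, a log2 ratio of 2.54 (2.18 to 2.92). Apoe, the main lipid carrier of astrocytes and activated microglia, had 1053 UMIs (3183 CPM) and 650 UMIs (1013 CPM), a log2 ratio of 1.65 (1.51 to 1.79). Clu, a secreted chaperone of astrocytes, had 1327 CPM and 421 CPM, a log2 ratio of 1.66 (1.43 to 1.88). All 3 were thus over 3-fold higher in the granule-marker bins of the injured side. Mt1 and Mt2, metallothioneins that bind zinc and copper, had log2 ratios of 1.03 (0.83 to 1.22) and 1.07 (0.73 to 1.42), and the median of the 3 measured metallothionein and zinc genes, 1.03, turned to -0.035 at the stricter 75th percentile of bins past the minimum of C1ql2 and Dsp. Mbp, a protein of myelin, had 1.20 (0.85 to 1.56), and Cst3, a secreted protease inhibitor, 0.94 (0.78 to 1.11). Ttyh1 (0.83), Cpe (0.81, but -0.00747 at that percentile), Ntrk2, the receptor of brain-derived neurotrophic factor (0.66), Cd81 (0.64) and Aldoc, the astrocytic aldolase (0.61), completed the genes named at this end.

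Markers of other cells moved with these genes. Summed over whole lists, the 18 reactive astrocyte genes had 449 UMIs (1357 CPM) on the injured and 186 UMIs (290 CPM) on the opposite side, with 6 of them at 0 UMIs on each side. The 12 oligodendrocyte genes had 1551 and 502 CPM, the 9 homeostatic microglia genes in the files 299 and 145 CPM, and the 18 astrocyte homeostatic genes 4307 and 2510 CPM. Gfap, Mbp and Clu belong to the reactive astrocyte, oligodendrocyte and astrocyte homeostatic lists, so these 3 sums are not separate from them. Gfap alone held 247 of the 449 and 82 of the 186 UMIs. The 12 radial glia and stem cell genes had 188 and 155 UMIs (1.23, 0.92 to 1.55), and the 9 choroid plexus and ependymal genes 85 and 77 UMIs (1.10, 0.64 to 1.56). The 6 phagocyte genes that placed the lesion zone had 25 and 29 UMIs (75.6 and 45.2 CPM), a log2 ratio of 0.74 (-0.09 to 1.56). Vim, an intermediate filament of reactive astrocytes and of vessels, had 74 UMIs against 7, and C4b, a complement component, 69 against 12, below the minimum for a measured gene. Serpina3n, of the same list as Vim and C4b, did not differ between the sides in the share of bins given below. The part of these cells in the higher genes of the layer was not tested.

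The share of bins with a UMI showed how widely the glial RNA was spread. After each bin was thinned to 500 UMIs, which left out 3 bins on the injured and 29 on the opposite side, Gfap was found in 34.2% of 152 bins (26.7 to 42.3%) and in 10.0% of 250 bins (6.6 to 14.4%). Without thinning the shares were 67.1% and 22.6%. Apoe was found in 67.8% and 42.8% of the thinned bins, and Vim in 14.5% (9.3 to 21.1%) and 0.8% (0.1 to 2.9%). The transcripts of Gfap and Apoe were therefore not held by a few bins of the injured layer. Serpina3n, of the same reactive astrocyte list as Gfap and Vim, stood alike on both sides. It was found in 5.3% (2.3 to 10.1%) of the thinned bins of the injured and 5.2% (2.8 to 8.7%) of the opposite side. Nrgn, as a neuronal transcript, was found in 62.5% and 72.0% of the thinned bins, and in 1 of 366 thinned Tcf7l2-rich bins of the injured side at 3 days (0.273%).

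Most neuronal lists held no gene past 1.5-fold, which at 1.37% higher and 1.67% lower over all genes is near the overall share and sets none of them apart. Of 20 granule identity genes, 12 were measured and none of them reached 1.5-fold in either direction. Bins of both sides had passed the same cutoff on C1ql2, Dsp and Prox1, and this list had named the kind. Like levels of this list were thus in part set by the choice of bins. Fam163b had 1130 and 1126 CPM, Rfx3, a transcription factor of cilium formation, 771 and 717 CPM, and Calb1, the calcium buffer calbindin, 320 and 301 CPM, so each stood within its counting interval of no difference. No gene reached 1.5-fold among 17 measured calcium and calmodulin signalling genes (median -0.15), 13 sodium and calcium channels (-0.13), 10 dendrite and postsynaptic genes (-0.06), 9 potassium and HCN channels (-0.01) and 8 AMPA, NMDA and kainate receptor subunits (-0.09). Among 16 synaptic vesicle and mossy fibre release genes 1 was at least 1.5-fold lower, and the median was -0.21. The 11 interneuron markers summed to less on the injured side, with 154 and 500 UMIs (465 and 779 CPM, -0.74, -1.01 to -0.48). Some neuronal genes with many UMIs had intervals below 0 without reaching 1.5-fold, among them Slc17a7 (-0.35, -0.55 to -0.16), Snap25, a protein of vesicle fusion (-0.30, -0.44 to -0.17), and Hpca, the calcium sensor hippocalcin (-0.32, -0.50 to -0.15).

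Bdnf, the neurotrophin stored in mossy fibres, was the lowest of the 1019 genes, with 43 UMIs (130 CPM) on the injured and 180 UMIs (281 CPM) on the opposite side, a log2 ratio of -1.10 (-1.63 to -0.62). Its receptor gene Ntrk2 had the ratio of 0.66 given above. Plk2, an activity-regulated kinase of synapses and the single gene past 1.5-fold among 4 measured immediate early genes, had 61 and 215 UMIs (-0.85, -1.30 to -0.45). Next came Brinp1 (-0.71), Slc2a13, a transporter of inositol (-0.69), mt-Co3 (-0.69), Ypel3 (-0.68), Lgi1, a secreted synaptic protein linked to epilepsy (-0.66), Ighm (-0.63), Plppr4 (-0.63), mt-Nd1 (-0.62) and Mdh1, a malate dehydrogenase (-0.61). The 13 mitochondrially encoded genes together held 0.64% of UMIs on the injured and 0.84% on the opposite side, a log2 ratio of -0.39 (-0.47 to -0.32), and 2 of the 10 measured were at least 1.5-fold lower. Opposite bins restricted to the distances from the dividing column at which the injured patch lay gave log2 ratios of 2.77 for Gfap and -1.24 for Bdnf.

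Bins around the granule-marker patches were then used to see which side differences the layer shared with its surroundings. The band 3 to 8 bins from the layer had 655 bins on the injured and 986 on the opposite side. The glial genes were higher in the injured band too, with Gfap at 1.52 (1.36 to 1.68), Apoe at 1.39, Clu at 1.19, Mbp at 1.71 and Mt1 at 0.89 on the log2 scale, but Aldoc (-0.11) and the astrocytic glutamate transporter gene Slc1a2 (-0.34) were not, against 0.61 and 0.52 in the layer. Gfap differed more between the sides in the layer than in the band, by 1.02 (0.62 to 1.44). The gap of Cst3, 0.56 (0.36 to 0.76), was near the median gap of 0.53 over all 662 genes measured in both areas. Mt1 and Mt2 had like ratios in both areas to within counting error (gaps of 0.13, -0.11 to 0.37, and 0.19, -0.20 to 0.59). Both gaps lay below that median, though the interval of Mt2 reached it. The neuronal genes parted the 2 areas. Nrgn had 38 UMIs in the injured and 620 in the opposite band, a log2 ratio of -2.88 (-3.41 to -2.43), against -0.23 (-0.36 to -0.11) in the layer.

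Over 662 genes measured in both areas, the injured over opposite ratio was at least 1.5-fold higher in the layer than in the band for 308 (46.5%) and lower for 12 (1.81%). The median ratio over all of them was -0.07 in the layer and -0.56 in the band, and the median gap 0.53. These counts thus rest in large part on a shift over all genes and do not set 308 genes apart. Among the 6 with the largest gap upwards were Cpne6, Slc8a2, Rbfox1, Rasgrp1 and Cck, neuronal genes that had ratios between -2.95 and -3.26 in the band and between -0.15 and 0.06 in the layer. Calcium and calmodulin signalling genes had a median of -0.22 in the layer and -1.95 in the band (14 genes), and synaptic vesicle and mossy fibre release genes -0.21 and -1.69 (14 genes). Among the 6 at the lower end were Chchd10, Igfbp5, H2bc4, Ubxn4 and Fth1, the ferritin heavy chain (0.26 in the layer and 0.97 in the band). The bands were not made of the same tissue. The 9 choroid plexus and ependymal genes had 44558 CPM in the injured and 3691 CPM in the opposite band, the oligodendrocyte genes 11188 and 3120 CPM, and the 8 CA3 markers 413 and 1164 CPM, so loss of neurons around the layer and a band that lay in other tissue cannot be told apart. With a band of 3 to 5 bins the gap upwards was found in 150 genes, a count given without its share of the genes measured there. For all members against their band, 365 (18.1%) of 2018 genes had the higher and 350 (17.3%) the lower ratio in the members at 3 days, and 278 (29.5%) and 16 (1.7%) of 942 at 28 days. The median gaps over all genes there were 0.07 at 3 days and 0.35 at 28 days.

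**Figure D3:**
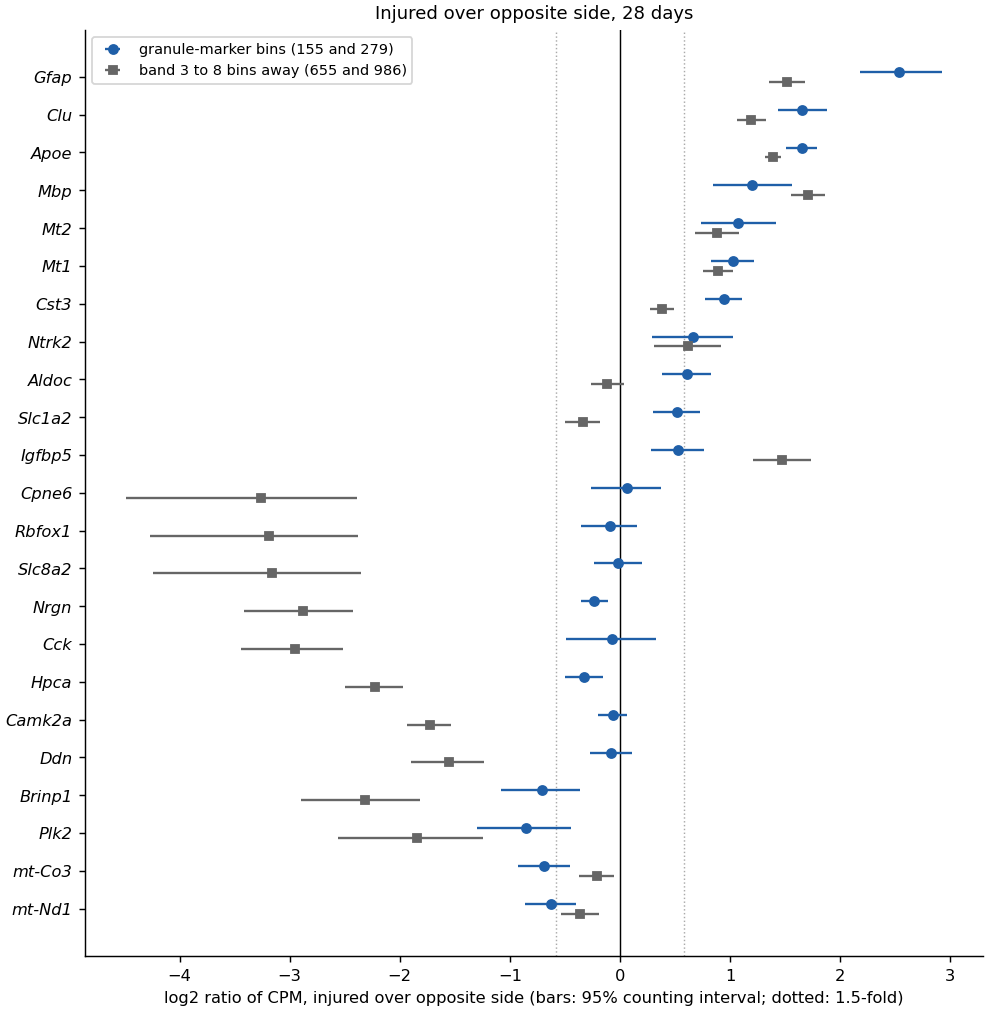
Log2 ratio of CPM, injured over opposite side, at 28 days in granule-marker bins (blue circles) and in the band around them (grey squares), with 95% counting intervals and dotted lines at 1.5-fold. Gfap, Clu, Apoe, Mbp, Mt1 and Mt2 lie to the right of 0 in both areas, whereas neuronal genes such as Nrgn, Cck and Hpca lie near 0 in the layer and between -2.95 and -2.22 in the band.

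Position within the layer was described by 4 distance classes with about the same number of bins, ordered by distance from the zone bins of the injured side. The injured patch at 28 days lay 32.0 to 233 µm from the zone (median 129 µm), the opposite patch 458 to 1259 µm. In the injured patch Gfap had 969, 831, 477 and 652 CPM from the nearest to the farthest class, and Vim 387, 147, 164 and 169 CPM. Apoe had its highest value in the third of the 4 classes (4537 CPM, against 2519, 2592 and 3310 CPM), and Mt2 in the farthest (628 CPM, against 323 CPM in the nearest). Even the lowest injured class of Gfap was above every opposite class, which had 76 to 187 CPM, and the same held for Apoe (881 to 1423 CPM) and Clu (382 to 494 CPM). Bdnf had 55 to 193 CPM in the injured and 165 to 320 CPM in the opposite classes, so that the 2 sides overlapped. The granule identity genes, whose level the choice of bins in part set, stood between 5414 and 6597 CPM in the injured and between 5842 and 6110 CPM in the opposite classes.

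**Figure D4:**
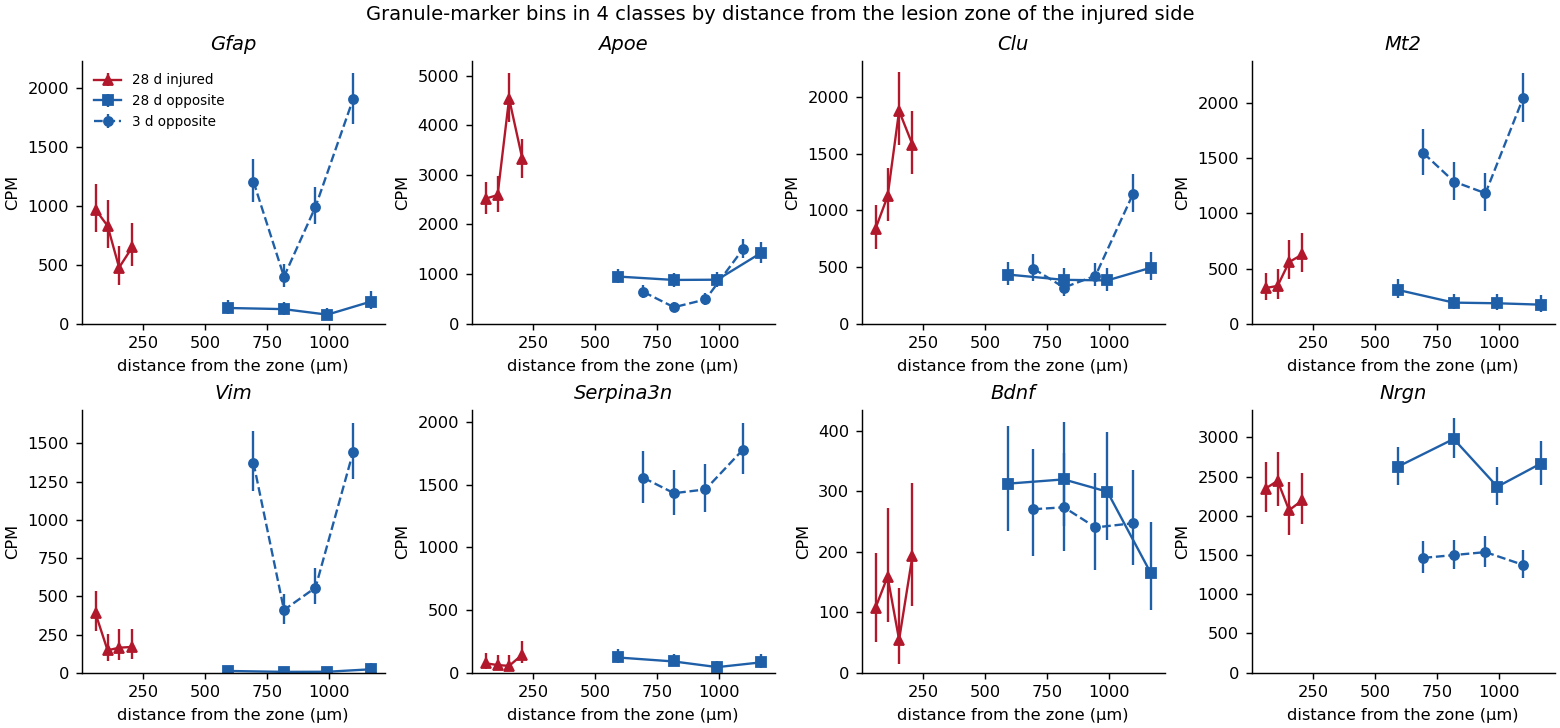
CPM of 8 genes in 4 distance classes of the granule-marker bins, plotted at the middle of each class's range of distance from the zone bins of the injured side in µm, with exact 95% counting intervals. Red triangles are the injured side at 28 days, blue squares the opposite side at 28 days and blue circles the opposite side at 3 days. Gfap, Apoe and Clu are higher in all injured than in all opposite classes at 28 days, and Vim and Serpina3n are higher at 3 days than at 28 days in all opposite classes.

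The granule-marker patches of the side opposite the impact were compared between the sections (225 bins with 643559 UMIs at 3 days, 279 bins with 641463 UMIs at 28 days). At 3 days they held far more RNA of reactive glial genes and metallothioneins, while 6 of 12 measured granule identity genes, 4 of 16 synaptic vesicle genes and 10 of 10 mitochondrially encoded genes were at least 1.5-fold lower relative to all UMIs. As UMIs per bin 2 list sums lay closer, at 13.1 and 13.7 for the granule identity genes and 27.1 and 28.9 for the synaptic vesicle genes. The calcium and calmodulin signalling genes had 37.5 and 43.2 UMIs per bin. Bins of the 3 days patch were also deeper, with a median of 2879 UMIs against 2555. Of 1504 genes measured, 97 (6.45%) were at least 1.5-fold higher and 125 (8.31%) at least 1.5-fold lower at 3 days, 42 (2.79%) and 31 (2.06%) reached 2-fold, and the median log2 ratio was -0.07. As UMIs per bin, where the median was 0.25, the counts were 280 and 42. Time after injury, animal, the level of the section and the cutoff that chose its bins cannot be told apart here. The 28 days opposite bins are also the reference of the side comparison above, so the values of both comparisons rest in part on the same bins.

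Vim had 597 UMIs (928 CPM) at 3 days and 7 UMIs (10.9 CPM) at 28 days, a log2 ratio of 6.31 (5.36 to 7.73). Serpina3n, a secreted protease inhibitor of reactive astrocytes, had 1001 UMIs (1555 CPM) and 55 UMIs (85.7 CPM), a ratio of 4.17 (3.79 to 4.60). Gfap had 717 UMIs (1114 CPM) and 82 UMIs (128 CPM), 3.12 (2.79 to 3.47). These 3 were the measured genes among 18 reactive astrocyte genes, and each reached the 200 UMIs through the 3 days section alone, so their number is no support for a direction. The whole list, unmeasured genes included, summed to 4107 CPM against 290 CPM (2643 and 186 UMIs). Most of these UMIs were those of the same 3 genes, so the sum is no separate support. Gfap was also above its 747 CPM on the injured side at 28 days, and Serpina3n above its 84.6 CPM there. Apod, a lipid carrier of glia and vessels, had a ratio of 4.21 (3.49 to 5.15), Mt2 2.80 (2.55 to 3.07) with 1515 against 217 CPM, and Mt1 1.66 (1.5 to 1.82). Apod and Mt2, unlike Mt1, also reached the minimum of UMIs through the 3 days section alone. Astrocyte homeostatic genes stood at a like level in both sections, with 4 measured, 1 lower (Slc4a4, a bicarbonate transporter, -0.86), a median of 0.02, and sums of 2530 and 2510 CPM. Apoe was at 740 and 1013 CPM (-0.45, -0.63 to -0.28).

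Other genes with high ratios are known from neurons or from many cells. Car12 had 288 and 31 UMIs (3.19, 2.67 to 3.80), Kazn 202 and 29 UMIs (2.77), Fscn1, an actin-bundling protein, 198 and 35 UMIs (2.48), Camk1, a calcium-dependent kinase, 177 and 39 UMIs (2.16), and Sv2c, a synaptic vesicle protein, 314 and 71 UMIs (2.13). Id2, an inhibitor of basic helix-loop-helix transcription factors, had 873 and 215 CPM (2.02, 1.75 to 2.30), and Stat3, the transcription factor of cytokine signalling, 423 and 104 CPM (2.01, 1.63 to 2.42). Of these, Car12, Kazn, Sv2c, Id2 and Stat3 reached the minimum of UMIs for a measured gene through the 3 days section alone. They stay in the count of higher genes, but their number is no support for a direction. Of the lists, Cck, the neuropeptide cholecystokinin, had 615 and 245 CPM (1.33, 1.06 to 1.61), Jun, an immediate early transcription factor, 578 and 274 CPM (1.07, 0.81 to 1.34), and Synpo, the spine protein synaptopodin, 357 and 198 CPM (0.85, 0.53 to 1.18). Igfbp5, an insulin-like growth factor binding protein, had 1897 and 538 CPM (1.82, 1.65 to 2.00), and Cebpb, a transcription factor of inflammation and acute responses, 472 and 198 CPM (1.25, 0.95 to 1.56). Igfbp5 and Cebpb lie outside the naming rule and were chosen after their values were seen.

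In the lower direction, 6 of 12 measured granule identity genes were at least 1.5-fold lower at 3 days and none was higher (median -0.56): Rfx3 (-0.94), Fam163b (-0.93), Lrrtm4, a synaptic adhesion protein of granule cell dendrites (-0.81), Calb1 (-0.74), Jph1 (-0.64) and Dgkh (-0.61). Others of the list were lower without reaching 1.5-fold, with Pitpnm2 at 360 and 511 CPM, Sipa1l2 at 263 and 327 CPM and Glis3 at 227 and 262 CPM. The rest kept their level or stood above it, with C1ql3 at 331 and 321 CPM, Pdzd2 at 303 and 281 CPM and Stxbp6 at 830 and 644 CPM (0.37, 0.18 to 0.55). Of 17 calcium and calmodulin signalling genes 6 were lower (median -0.38), led by Hpca with 556 and 1493 CPM (-1.42, -1.60 to -1.25) and including Nrgn (-0.86), Camk2a and Camk2b, the subunits of calcium/calmodulin kinase II (-0.74 and -0.68), and Ncald (-0.74). Of 16 synaptic vesicle and mossy fibre release genes 4 were lower (median -0.39), namely Cplx2 (-1.07), Syt7 (-0.89), Snap25 (-0.63) and Slc17a7 (-0.61). Grm2, a presynaptic glutamate receptor of mossy fibres, had 152 and 382 CPM (-1.32, -1.68 to -0.98), and Neurod2 300 and 633 CPM (-1.08, -1.33 to -0.83). Prdm8 (-1.71), Tubb2a, a neuronal tubulin (-1.57), Vstm2a (-1.38), Crmp1, a protein of axon guidance (-1.36), Hectd2 (-1.32) and Trim9 (-1.31) were also among the lowest. As UMIs per bin the granule identity median was -0.24 and that of the calcium and calmodulin genes -0.07, against 0.25 over all genes. Each section had its own cutoff on the share of C1ql2, Dsp and Prox1, 754 CPM at 3 days and 815 CPM at 28 days. The median block share of the bins compared was 1078 and 1282 CPM, and the granule identity list had also named the kind. The part of this choice of bins in the lower levels was not tested.

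The mitochondrially encoded genes were lower as a group, with 10 of 10 measured at least 1.5-fold lower and a share of 0.35% of UMIs at 3 days against 0.84% at 28 days. mt-Nd1 had 295 and 965 CPM (-1.71, -1.95 to -1.47). In the rest of the opposite side the 13 genes held 1.26% and 1.93% of UMIs (-0.61), and 8 of the 13 were at least 1.5-fold lower. There mt-Nd1 had a ratio of -0.66 (-0.68 to -0.65) and mt-Co3 of -0.70. Nuclear genes of oxidative phosphorylation had a median of -0.16 in the layer, with none of 7 past 1.5-fold.

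**Figure D5:**
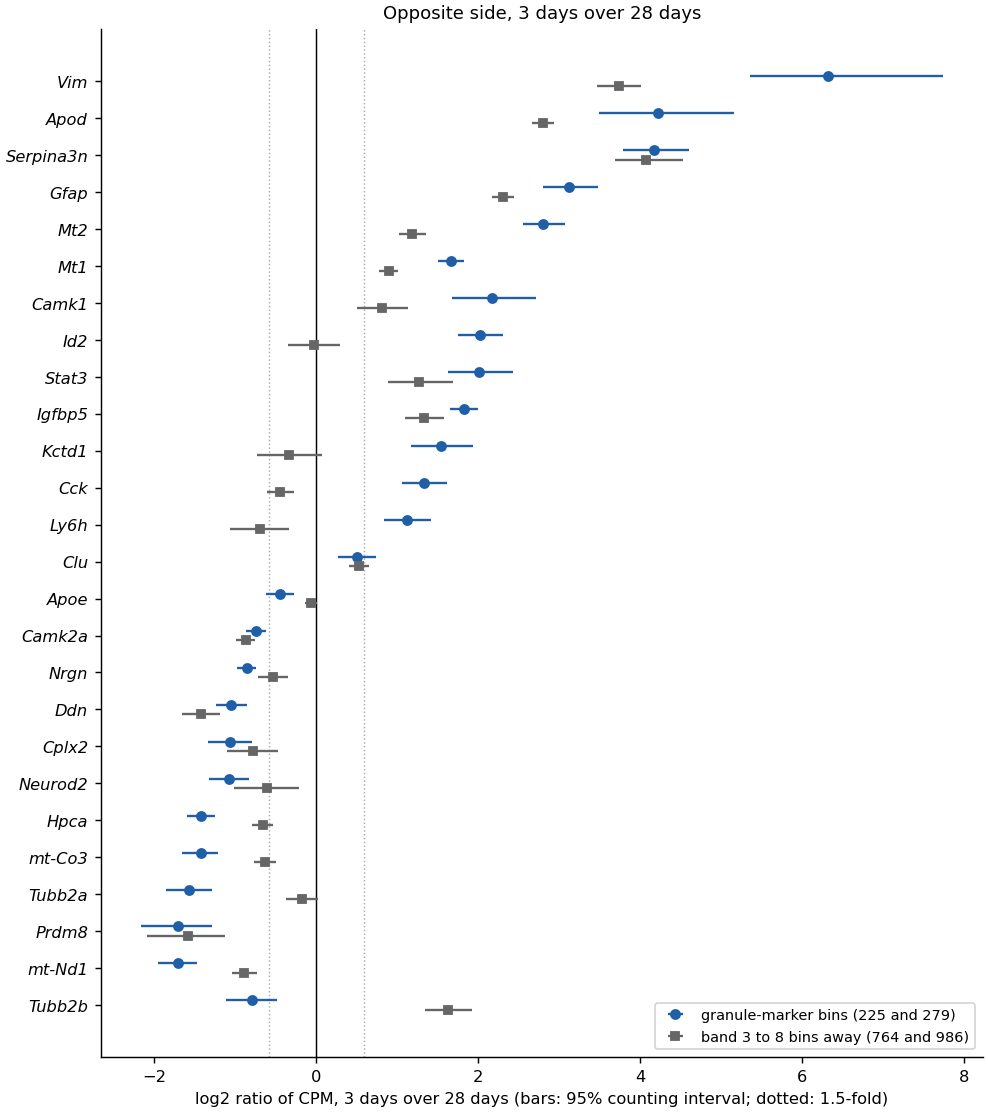
Log2 ratio of CPM on the opposite side, 3 days over 28 days, in granule-marker bins (blue circles) and in the band around them (grey squares), with 95% counting intervals and dotted lines at 1.5-fold. Serpina3n has the same ratio in both to within counting error, Id2, Kctd1, Cck and Ly6h lie to the right of 0 in the layer only, and Tubb2b lies to the left of 0 in the layer and to the right in the band.

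Set against the rest of the opposite side, the layer stood out in several of these genes. Vim differed by 5.31 (4.35 to 6.73) more between the sections in the layer than in the rest, Apod by 4.05 (3.32 to 4.99), Car12 by 3.48 (2.94 to 4.10), Mt2 by 2.97 (2.71 to 3.24), Kazn by 2.79 and Serpina3n by 2.70 (2.31 to 3.15). At the other end were Nptxr (-1.95), Tubb2a (-1.82), Prdm8 (-1.66), Bhlhe22 (-1.54), Crmp1 (-1.51) and Ddn, a dendritic mRNA (-1.51). Of 1504 genes, 89 (5.92%) differed at least 1.5-fold upwards and 156 (10.4%) downwards, with a median difference of -0.09. The rest was not matched for region. It held 79721 bins up to 5327 µm from the zone of the injured side at 3 days, and 53327 bins up to 4067 µm from it at 28 days. The part of this in the differences was not tested.

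The band around the layer (764 bins at 3 days, 986 at 28 days) shared part of this. Serpina3n had 1314 and 77.3 CPM in the band, a ratio of 4.07 that differed from that of the layer by 0.09 (-0.50 to 0.68). Beyond the band, the layer had the higher ratio for Vim (by 2.58, 1.58 to 4.03), Id2 (by 2.05, 1.63 to 2.47), Kctd1 (by 1.87), Ly6h (by 1.82), Cck (by 1.78, 1.46 to 2.10) and Mt2 (by 1.62, 1.31 to 1.93). Vim was nevertheless at a higher level in the band, with 2436 CPM at 3 days and 183 CPM at 28 days. The lower end was held by Tubb2b (-2.42), Gpd1 (-1.86), Tubb2a (-1.39), Marcks (-1.28), Tsc22d1 (-1.09) and Tpt1 (-1.07). Over 1060 genes, 130 (12.3%) had the higher and 30 (2.83%) the lower ratio in the layer. With a band of 6 to 12 bins these counts were 82 and 93, given without the number of genes measured there. The median ratio over the 1060 genes was -0.08 in the layer and -0.22 in the band, and the median gap 0.13. Synaptic vesicle and mossy fibre release genes had medians of -0.41 and -0.67 (14 genes). The bands were not matched for tissue, and the part of their content in the gaps was not tested.

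Markers of other cells moved with this comparison as well. The oligodendrocyte genes summed to 1310 CPM at 3 days and 502 CPM at 28 days, the homeostatic microglia genes to 337 and 145 CPM, the 6 phagocyte genes to 171 CPM (110 UMIs) and 45.2 CPM (29 UMIs), and the CA3 markers to 228 and 447 CPM. The 8 mossy cell markers had 151 and 38 UMIs, of which Tm4sf1, which also belongs to the reactive astrocyte list, made up 100 and 4, while 5 of the 8 were at 0 UMIs at 3 days. Their part in the differences was not tested. With bins that held a phagocyte UMI left out, 78 of 1127 measured genes were at least 1.5-fold higher and 112 lower, against 97 and 125 of 1504, so fewer genes were measured too.

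Within the 3 days layer the reactive genes were uneven. Gfap had 1207, 399, 993 and 1905 CPM in distance classes ordered from near to far, and Vim 1373, 410, 557 and 1441 CPM, so both were lowest in the second of the 4 classes. These distances run to the zone of the injured side, but at 3 days 436 bins of the opposite side also passed the phagocyte rule, and 187 of the 225 bins of the layer lay nearer to those. Ordered by distance from the zone bins of both sides, which left the layer 298 to 721 µm away, Gfap had 1850, 1020, 747 and 788 CPM and Vim 1420, 574, 653 and 1031 CPM, so the order depended on which zone bins were used. With the first order Serpina3n was even, with 1553, 1431, 1461 and 1779 CPM, and so was Car12, with 402, 428, 417 and 537 CPM. Every one of these classes was above every class of the opposite layer at 28 days. In bins thinned to 500 UMIs, Serpina3n was found in 52.9% of 223 bins (46.1 to 59.6%) at 3 days and in 5.2% of 250 bins (2.8 to 8.7%) at 28 days, and in 1.8% of 218 thinned Tcf7l2-rich bins of the opposite side at 3 days. Unthinned shares were 93.3%, 17.9% and 5.0%, at median depths of 2879, 2555 and 1388 UMIs. Car12 was found in 16.6% (12.0 to 22.1%) and 2.8% (1.1 to 5.7%) of the thinned granule-marker bins, and in 0 of 366 thinned Tcf7l2-rich bins of the injured side, which at 3 counts allows a share of up to 0.820% of bins with a UMI (exact upper limit 1.003%).

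With the score as used here, the Tcf7l2-rich patches gave the only side comparison of patches of 1 kind at 3 days, 379 bins with 616264 UMIs on the injured and 238 bins with 361090 UMIs on the opposite side. Gfap and Aqp4 had the highest ratios, but each reached the minimum of UMIs for a measured gene through the injured side alone. Of 8 measured astrocyte homeostatic genes Aqp4 alone was past 1.5-fold (median 0.28), and Gfap was the 1 reactive astrocyte gene measured. Of 1000 genes measured, 16 (1.6%) were at least 1.5-fold higher and 7 (0.7%) at least 1.5-fold lower, with a median of -0.05 over all. At 2-fold the counts were 3 (0.3%) higher and 0 (0.0%) lower. Gfap had 342 UMIs (555 CPM) and 65 UMIs (180 CPM), a log2 ratio of 1.62 (1.24 to 2.03), and Aqp4, the water channel of astrocyte endfeet, 657 and 324 CPM (1.02, 0.72 to 1.33). Aldh1a1 (1.01), Sema5a (0.98), Mt2 (0.77), Stmn4 (0.76), Serpine2 (0.71), Srrm2 (0.70), Inpp5j (0.69), Tmsb4x (0.68) and Ppp2r5b (0.67) followed. Aldh1a1, Mt2 and Stmn4 also reached the minimum of UMIs through the injured side alone. With TMM scaling 13 genes were higher and 10 lower, and as UMIs per bin 27 and 2.

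At the lower end of the Tcf7l2-rich comparison were Tmem35a (-0.80), Igfbp5 with 623 and 1014 CPM (-0.70, -0.91 to -0.49), Opa1, a protein of mitochondrial fusion (-0.65), Adcy1, an adenylate cyclase (-0.64), Kcnma1, the BK potassium channel (-0.62), Ap1s1 (-0.61) and Nefl, the light neurofilament (-0.60, -0.82 to -0.38). Among 16 synaptic vesicle genes, 12 oxidative phosphorylation genes and 11 glycolysis genes none reached 1.5-fold, with medians of -0.12, -0.04 and -0.14. Markers of other cells differed as well. The homeostatic microglia genes had 231 UMIs on the injured and 45 on the opposite side (375 and 125 CPM), the 13 interferon-stimulated genes 204 and 49.8 CPM and the 15 endothelial and mural genes 555 and 260 CPM, whereas the oligodendrocyte genes stood at 3476 and 3296 CPM. Their part in the result was not tested. Gfap was highest in the class nearest to the zone of the injured side. It had 1509, 446, 228 and 166 CPM in the injured classes, the nearest of which lay 22.6 to 129 µm from the zone, and 547, 162, 109 and 11.8 CPM (the last from 1 UMI) in the opposite classes, 1036 to 1312 µm from it. Measured to the zone bins of both sides, the opposite classes had 287, 163, 177 and 49.2 CPM. The 61 Tcf7l2-rich bins of the injured side at 28 days had 47160 UMIs and no counterpart on the opposite side. They held Gfap at 1145 CPM (54 UMIs), Apoe in 90.6% of 53 thinned bins (79.3 to 96.9%) and no UMI of Lct, Neurod2 or Nrgn.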

How the data were processed

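Per the file headers and labels, the authors deposited raw UMI counts, without normalization, for every gene of the mouse probe set in bins of 16 µm. Space Ranger 4.0.1 and mm10 are named in the submitters' processing notes. The sections had 121967 bins with 120615873 UMIs at 3 days and 105589 bins with 82422389 at 28 days (medians 836 and 596 per bin), and bins under 100 UMIs were left out (1.93% and 2.15%). Same-symbol rows were summed (19065 symbols), and 532 of 541 listed genes were in the files.

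The injured side was at or below column 130 at 3 days and 240 at 28 days. The percentile was taken over the block share of all opposite-side bins before the minimum of 3 UMIs of C1ql2 plus Dsp was applied. Scores set to 0 below that minimum, as first planned, gave a threshold of 0, because only 1.10% and 0.940% of opposite bins reached it. The lesion zone was made of bins whose share of 6 phagocyte genes (Laptm5, Cd52, Lgals3, Ctsz, Lyz2, Cd68) in blocks 5 bins wide exceeded the 99th percentile of the opposite side, in patches of at least 100 bins. At 3 days 436 of its 4167 bins lay on the opposite side, and distances were measured to the zone bins of the injured side alone, with those of both sides as an alternative added after the data were seen. Connected patches of at least 25 members were called granule-marker or Tcf7l2-rich by which of the granule identity and thalamic lists had more UMIs, a split made after the data were seen, as were the comparison between sections, the bands of single patch kinds, the thinning to 500 UMIs and the granule-marker bins of the score without Prox1.

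Sums of UMIs over bins were divided by the total of the same bins (CPM), and arms were compared by the log2 of their quotient after 0.5 UMI was added. Intervals of ratios are exact conditional binomial, of levels exact Poisson and of shares Clopper-Pearson, and take bins as independent draws. No test was run. Some genes that met the naming rule are not reported here, but they stay in all counts and medians. Members, gene lists and rules were chosen with earlier results of these data known. Named genes were the 12 highest and 12 lowest per comparison, the 6 highest and lowest differences, and list members past 1.5-fold or with many UMIs. C1ql2, Dsp and Prox1 were left out of all comparisons. CA1 bins, scored in the same way, numbered 13 on the injured side at 3 days and 35 at 28 days, too few for the comparison that had been planned. Alternatives covered the percentile, the bin and gene minimums, the score genes, the lesion zone, bins with phagocyte UMIs, the pseudocount, the band and the scaling (TMM factors from edgeR 4.0.16 in R 4.3.3). Other steps used scipy 1.17.1, pandas 2.3.3, numpy 2.4.6 and matplotlib 3.10.9 under Python 3.11.15, and the ratios and the score were tested on simulated data.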

Additional observations from a re-analysis of the deposited data

Results flagged for a closer look

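The median of the metallothionein and zinc genes, of which 3 of 8 were measured, had opposite signs over all members of the 2 sections. Mt1 and Mt2 were at least 1.5-fold lower on the injured side at 3 days and higher at 28 days, while Mt3 stayed within 1.5-fold in both (0.18 and 0.15). Over all members, the median log2 ratio of the 3 measured genes, injured over opposite side, was -0.84 at 3 days and 1.14 at 28 days. The difference was not tested, and the members of the sides were different kinds of patch at 3 days. Within like patches the sign was not opposite, and the medians were 0.50 in Tcf7l2-rich bins at 3 days and 1.03 in granule-marker bins at 28 days, where the latter turned to -0.035 at the 75th percentile of bins past the minimum of C1ql2 and Dsp.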

How the results depend on the processing

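Each comparison rests on 1 section per group, and depth limits it to genes with at least 200 UMIs, between 662 and 2053 of 19065, so lower genes are given as counts only. No paired analysis was possible because each group is 1 section, so that the sides of a section, though of the same brain, form a single pair with no replicate. The comparison with CA1 bins was not run, and at the 97th percentile CA1 bins of the injured side numbered 21 at 3 days and 63 at 28 days.

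Counts below are genes at least 1.5-fold higher, then lower, and the causes were not tested. The number of genes measured changed with several settings and is given after "of", so counts are to be read as shares. For granule-marker bins at 28 days, the 75th percentile of bins past the minimum of C1ql2 and Dsp left 71 and 80 bins. It gave 2 and 4 of 212 genes, and turned the median of the metallothionein and zinc genes to -0.035 and Cpe to -0.00747. The score without Prox1 gave 22 higher of 1135, UMIs per bin 34 lower of 1019 and equal weight of bins 45 lower of 1019. A gene minimum of 50 UMIs gave 303 and 267 of 5099, and one of 500 UMIs 5 and 3 of 220. Gfap stayed between 1.93 and 2.77 and Bdnf between -1.25 and -0.97 over all settings. For the opposite side, 3 days over 28 days, the 75th percentile gave 11 and 22 of 137 and UMIs per bin 280 and 42 of 1504. The minimum of 50 UMIs gave 614 and 483 of 6217, and that of 500 UMIs 26 and 48 of 349.

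For Tcf7l2-rich bins, lower counts were 12 of 1131 at the 97th percentile, 2 of 858 at the 99th and 12 of 1039 with at least 200 UMIs per bin. They were 14 of 1202 without Prox1, 4 of 807 without bins holding a phagocyte UMI and 12 of 1000 with equal weight of bins. The 75th percentile gave 4 and 3 of 316 and UMIs per bin 27 and 2 of 1000. The minimum of 50 UMIs gave 311 and 213 of 4898, and that of 500 UMIs 3 and 2 of 251.

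Over all members at 3 days, the 75th percentile gave 111 and 88 of 686, UMIs per bin 103 and 731 of 2053 and equal weight of bins 165 higher of 2053. The minimum of 50 UMIs gave 1085 and 1428 of 7222, and that of 500 UMIs 133 and 84 of 513. At 28 days, the 97th percentile gave 44 lower of 1256, the 75th 3 and 10 of 360, and no Prox1 46 and 39 of 1503. Of 1085 genes, TMM factors gave 44 lower, UMIs per bin 9 and 359, and equal weight of bins 41 and 149. The minimum of 50 UMIs gave 357 and 267 of 5317, and that of 500 UMIs 6 and 1 of 237. Without Prox1 the members at 3 days numbered 701 on the injured and 794 on the opposite side, of which 63 and 361 fell to the granule-marker kind, the 63 with 472 CPM of the granule identity genes.

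Counts against other bands are given without the number of genes measured. Against a band of 3 to 5 bins, the lower counts of all members were 199 at 3 days and 8 at 28 days, and against 6 to 12 bins 28 at 28 days. Granule-marker bins at 28 days had 150 and 5 against 3 to 5 bins, and the opposite side, 3 days over 28 days, 82 and 93 against 6 to 12 bins. Of 632 values of the genes and lists reported here, recomputed for granule-marker bins at 28 days, 595 stayed within their spread, 35 moved and 2 reversed. For all members 137 of 659 values moved at 3 days and 80 of 621 at 28 days. On the opposite side, 3 days over 28 days, 69 of 648 moved, and in Tcf7l2-rich bins at 3 days 9 of 567. In each of these the number reversed was 0. The splits by patch kind were chosen after seeing the data.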
